A study of Mus musculus with 15 samples.

Results

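The netrins and their receptors were followed through 5 regions of the E12.5 mouse brain, a stage at which brain axons are growing. The 10 genes were taken by symbol from the 24264 genes of the deposited table: the netrin ligands Ntn1 and Ntn4, the receptor Dcc and its paralog Neo1, the 4 UNC5 receptors Unc5a, Unc5b, Unc5c and Unc5d, and the membrane-anchored netrin-G proteins Ntng1 and Ntng2. RNA-seq (sequencing of cDNA from extracted RNA) covered 15 libraries, 3 from each of the forebrain, alar plate, dorsal midbrain, ventral midbrain and hindbrain. Every sample came from C57bl/6 mice carrying GFP under the promoter of Th, the enzyme that starts dopamine synthesis, so no group lacked the reporter and no group was treated. The labels do not place the alar plate samples along the brain. Nor do they say whether the 3 samples of a region were separate or pooled embryos, and the p-values given here therefore speak only of sample-to-sample spread, part of which may be technical. Values are RPKM (reads scaled by gene model length and by library size), a level that can be compared between genes.

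Netrins are secreted proteins, related to laminins, that guide growing axons. In the embryonic neural tube Ntn1 is made by the floor plate, the strip of cells along the ventral midline, and by ventricular zone progenitors. DCC on a growth cone turns it toward netrin 1, and an UNC5 receptor, alone or together with DCC, turns it away. Netrin-G proteins are anchored to the membrane by a lipid, do not bind DCC or UNC5, and pair instead with netrin-G ligands on other neurons.

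All 10 genes were detected in all 15 libraries, and all 10 passed the filter for testing, which asked for 1 RPKM or more in 3 libraries or more. Whole reads could be recovered from the RPKM values, and they summed to 8416498 to 12721959 per library. The member with the fewest reads was Ntng2 in hindbrain 3, with 46, and the member with the most was Ntn1 in ventral midbrain 2, with 16235. Alar plate 3 stood apart from the other libraries: its RPKM values summed to 489420 against 374280 to 390992, and its long genes ran low. Relative to alar plate 1 and 2, the genes of the longest of 4 length groups differed by a median of -0.55 in log2(RPKM + 1), and those of the shortest by 0.55. Gbx2, a gene of the anterior hindbrain and the thalamus, stood at 73.0 RPKM in alar plate 3, 111 in forebrain 1 and 14.1 in dorsal midbrain 3, and at no more than 8.89 in the other 12 libraries. Hindbrain 1 had 0.107 RPKM of the hindbrain gene Hoxa2, against 11.1 and 6.24 in hindbrain 2 and 3. In the ventral midbrain all 6 dopaminergic neuron markers tested were called higher.

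RefSeq promoter windows (250 bases before the annotated start, mouse build GRCm38.p6) were matched to 7 of the 10 genes, and Ntn1, Dcc and Unc5d had no entry. Below are those of the 3 UNC5 paralogs, which had different regional patterns, and of Ntng2, which after Ntn1 had the largest ratio between its highest and lowest region means (6.73). Capitals mark GGGCGG, the core motif of SP and KLF factors, on either strand (written there as CCGCCC).

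Unc5a promoter, chr13:54949161-54949410, plus strand: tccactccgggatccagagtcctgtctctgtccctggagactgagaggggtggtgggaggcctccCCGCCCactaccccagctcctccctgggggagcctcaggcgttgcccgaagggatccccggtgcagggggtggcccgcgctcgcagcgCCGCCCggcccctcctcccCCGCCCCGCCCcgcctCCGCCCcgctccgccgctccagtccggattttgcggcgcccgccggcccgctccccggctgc
Unc5b promoter, chr10:60831582-60831831, minus strand: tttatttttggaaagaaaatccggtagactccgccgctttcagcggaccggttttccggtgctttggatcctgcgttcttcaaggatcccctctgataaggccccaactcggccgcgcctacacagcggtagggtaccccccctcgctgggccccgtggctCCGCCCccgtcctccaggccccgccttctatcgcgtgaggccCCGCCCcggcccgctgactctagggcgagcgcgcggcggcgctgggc
Unc5c promoter, chr3:141465314-141465563, plus strand: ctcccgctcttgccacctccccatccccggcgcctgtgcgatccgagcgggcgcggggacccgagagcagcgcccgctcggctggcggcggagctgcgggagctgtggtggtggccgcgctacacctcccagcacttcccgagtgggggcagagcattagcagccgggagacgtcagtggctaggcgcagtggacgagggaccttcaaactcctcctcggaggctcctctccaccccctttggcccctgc
Ntng2 promoter, chr2:29248100-29248349, minus strand: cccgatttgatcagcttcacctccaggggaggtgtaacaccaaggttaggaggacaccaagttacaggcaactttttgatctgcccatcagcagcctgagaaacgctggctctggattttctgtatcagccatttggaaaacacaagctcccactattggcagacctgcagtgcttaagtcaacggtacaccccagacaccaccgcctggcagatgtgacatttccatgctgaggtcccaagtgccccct

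GGGCGG occurred 5 times in the Unc5a window and 2 times in that of Unc5b, and was absent from those of Unc5c and Ntng2. It also occurred 4 times in the window of Ntn4, 1 time in that of Neo1 and 1 time in that of Ntng1. Among all 32851 RefSeq mouse windows of this length, 32.7% held it. Both strands were also searched for TAATCC (OTX and PITX factors), TAATTA (the homeodomain core), CTTTGA (TCF and LEF factors), TGTTTAC (FOX factors), GACCACCCA (GLI factors) and TATAAA (the TATA box). None of these letters were found in any of the 7 windows. They occur in 6.25%, 4.84%, 13.8%, 3.17%, 0.225% and 12.4% of all windows, in that order. Bases G and C made up 76.8% of the Unc5a window, 66.8% of that of Unc5b, 71.2% of that of Unc5c and 52.4% of that of Ntng2, against a median of 52.4% over all windows. A match is a description of the sequence and says nothing of binding.

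The first comparison asked which members differed among the 5 regions. Differences were tested with limma on log2(RPKM + 1), over all 13745 genes that passed the filter, and a gene was called at an adjusted p under 0.05. Of the 10 members, 8 differed across the regions, against 33.7% of all genes tested; Dcc and Unc5d did not pass. Over the 10 pairs of regions, 27 of the 100 member-by-pair tests were called, against 12.4% of such tests over all genes. In 58 of the 100 the 3 libraries of one region lay wholly above the 3 of the other, against 37.1% over all genes, and all 27 called tests were among them. Of the 27 calls, 18 held with each of the 15 libraries left out in turn. With alar plate 3 left out, 9 members were called across regions (background 56.7%) and 39 pair tests. Over the single pairs, the share of all genes called was then 0.437% to 52.4%, against 0.0946% to 32.1% with all 15 libraries. By pair, the ventral midbrain differed in 5 members from the dorsal midbrain (background 23.9%), in 5 from the alar plate (14.2%), in 2 from the forebrain (8.33%) and in 0 from the hindbrain (3.8%). The dorsal midbrain differed in 5 from the hindbrain (32.1%), in 4 from the forebrain (27.3%) and in 0 from the alar plate (1.67%). The hindbrain differed in 4 from the alar plate (9.97%) and in 2 from the forebrain (2.7%), and the alar plate and forebrain differed in 0 (0.0946%). The 3 pairs with 0 called by limma had 3, 5 and 4 members at an unadjusted p under 0.05, in that order. With only the ventral midbrain and hindbrain in the fit, 3 members were called between them (15.9% of all genes), with adjusted p of 0.000342 for Dcc, 0.032 for Ntng1 and 0.0272 for Ntng2. Without alar plate 3 the same 3 pairs had 2 members called (8.12%), Dcc (adjusted p = 0.000336) and Ntng1 (0.0358), then 2 (3.56%) and 1 (0.437%), and the pair of forebrain and hindbrain had 5 (4.93%). Without forebrain 1 the alar plate and forebrain had 2 (6.61%). The dorsal midbrain and alar plate had 1 without alar plate 1 (5.48%), dorsal midbrain 3 (8.85%) or forebrain 1 (3.82%). Other counts fell. The ventral midbrain and alar plate had 2 without alar plate 2 (17.1%) or any ventral midbrain library (6.97% to 7.96%), and 3 without alar plate 1 (21.1%) or hindbrain 2 (11.8%), with no filter on low values (10.9%) or with only these regions in the fit (7.33%). The ventral midbrain and forebrain had 1 without forebrain 2 (5.6%) or any ventral midbrain library (4.63% to 5.19%), and the hindbrain and alar plate had 2 without hindbrain 2 (4.33%) or 3 (3.92%). The fits above left out the replicate numbers, which were taken to pair the ventral midbrain, forebrain and hindbrain. With these numbers as a block, the ventral midbrain and hindbrain had 1 member called (4.27%), Ntng1. The forebrain and hindbrain then had 3 (2.69%), and the ventral midbrain and forebrain 2 (9%).

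**Figure D1:**
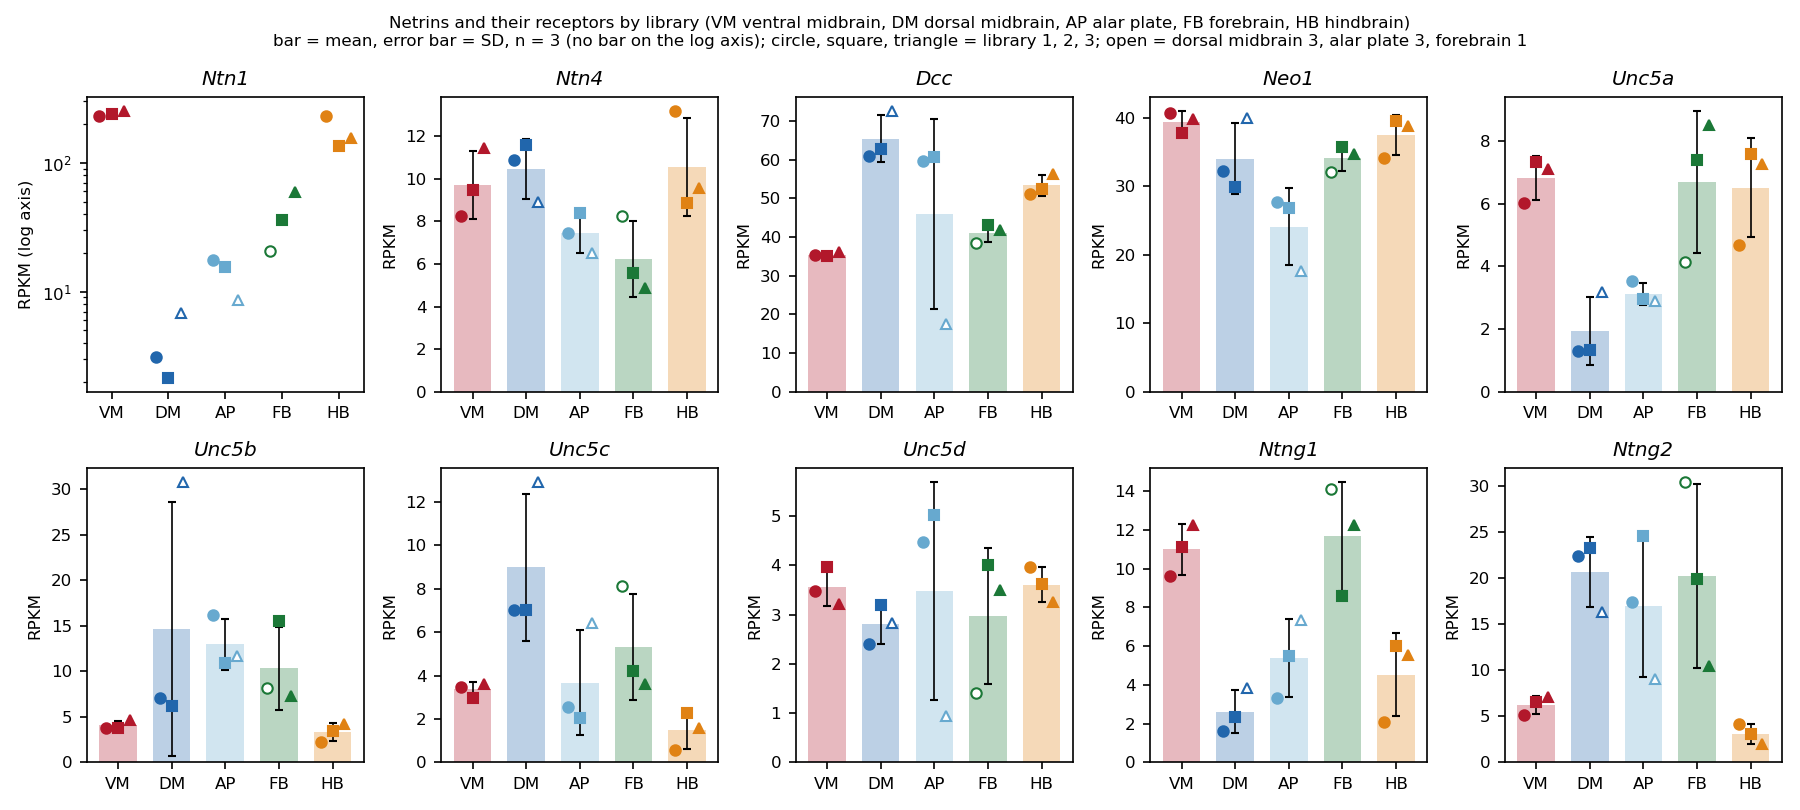
RPKM of the 10 members in each library, by region, each gene on its own axis. The axes are linear, with bars for the mean and error bars for the SD (n = 3), except for Ntn1. Ntn1 is on a log axis and has points only. Ntn1 ranged from 2.12 RPKM in dorsal midbrain 2 to 253 in ventral midbrain 3, while Unc5d stayed between 0.934 and 5.01.

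Each region was then set against the unweighted mean of the other 4. In the dorsal midbrain 5 members were called, against 32.0% of all genes: Unc5c and Ntng2 were higher, and Ntn1, Unc5a and Ntng1 were lower. In the hindbrain 3 were called, against 6.3%: Ntn1 was higher, and Unc5c and Ntng2 were lower. In the ventral midbrain Ntn1 and Ntng1 were called, both higher, which is 2 of 10 against 10.6% of all genes. In the alar plate Ntn1 and Neo1 were called, both lower, against 4.66%. In the forebrain limma called 0 of 10, against 2.92% of all genes, and 4 members had an unadjusted p under 0.05. The median size of the log2 difference, sign disregarded, was larger for the members than for all genes in each region, with 0.92 against 0.23 in the dorsal midbrain and 0.38 against 0.20 in the alar plate. These counts moved with single libraries. The dorsal midbrain count was 3 without dorsal midbrain 1 (8.3% of all genes), and the hindbrain count was 5 without dorsal midbrain 3 (11.6%). The ventral midbrain count was 5 without alar plate 3 (19.6% of all genes), 4 without dorsal midbrain 3 (12.6%), and 1 without any one of its own libraries (5.05% to 5.71%). The forebrain count was 3 without alar plate 3 (8.24% of all genes) or dorsal midbrain 3 (8.34%), 2 without forebrain 1 (6.99%), and 1 without hindbrain 1 (2.17%) or hindbrain 2 (2.19%). With the replicate number as a block, the forebrain count was 2 (4.1%) and the ventral midbrain count 4 (11%).

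**Figure D2:**
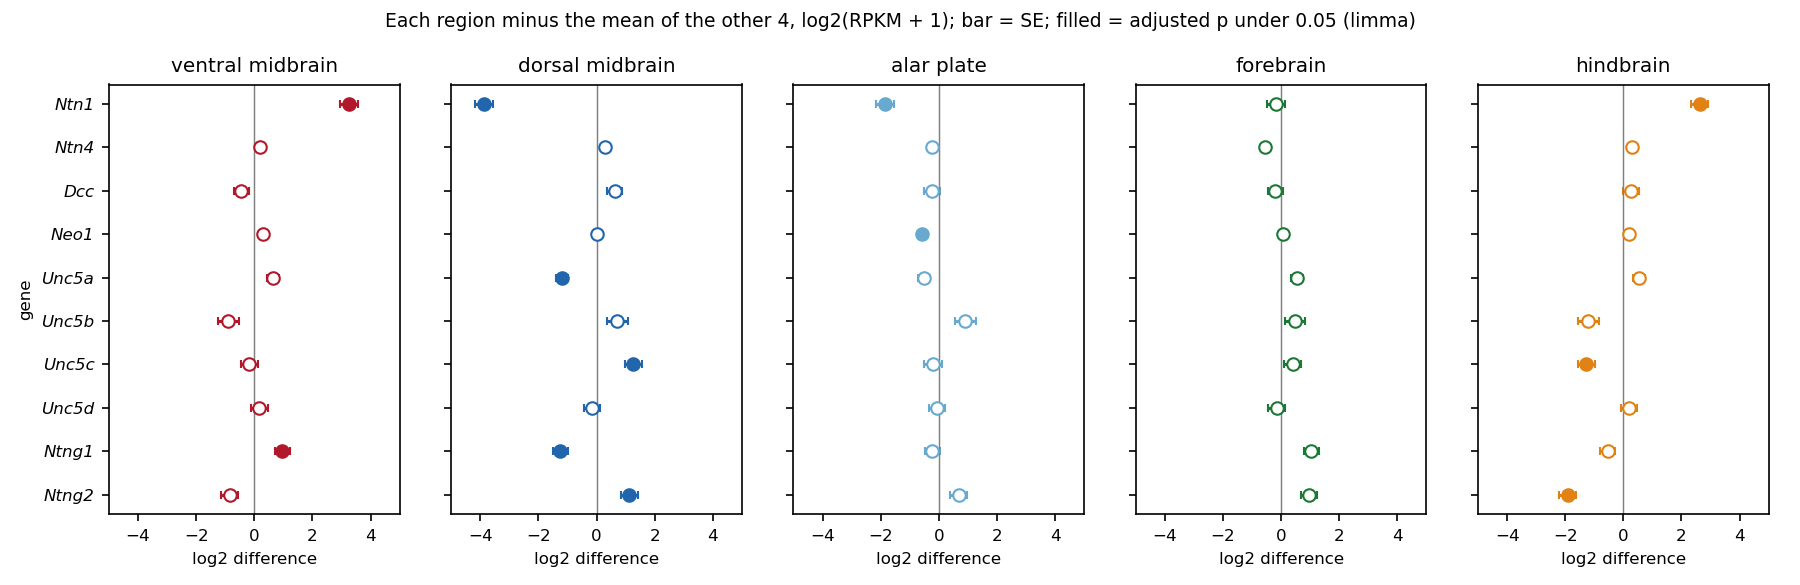
Log2 difference of each region from the mean of the other 4 (x axis, log2(RPKM + 1)) for the 10 members (y axis), with the SE as bars and filled points at a limma adjusted p under 0.05. Ntn1 spans the widest range, from -3.87 in the dorsal midbrain to 3.25 in the ventral midbrain.

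Ntn1, the floor plate netrin, was the member with the widest regional range and one of the most abundant. It stood at 229, 237 and 253 RPKM in ventral midbrain 1, 2 and 3, and at 229, 135 and 156 in the hindbrain libraries. The forebrain libraries had 20.5, 35.9 and 59.2, the alar plate libraries 17.5, 15.4 and 8.52, and the dorsal midbrain libraries 3.09, 2.12 and 6.86. The 5 regions did not overlap in any of the 10 pairs, with the ventral midbrain highest and the dorsal midbrain lowest. The mean of 240.0 ± 12 RPKM (SD, n = 3) in the ventral midbrain was 59.6 times the 4.02 ± 2.5 of the dorsal midbrain. In bulk tissue, fewer cells of a type and less RNA per cell cannot be told apart. Against the other regions, the log2 difference was 3.25 in the ventral midbrain (SE 0.31, adjusted p = 1.46e-05) and 2.62 in the hindbrain (adjusted p = 0.000201). It was -3.87 in the dorsal midbrain (adjusted p = 1.08e-05) and -1.85 in the alar plate (adjusted p = 0.00477). The forebrain, in the middle of the order, did not pass (-0.16, adjusted p = 0.806). Of the 10 pairs, 7 were called, each also with any library left out. The ventral midbrain and the hindbrain, neighbours at the top, differed by 0.50 (SE 0.39, adjusted p = 0.72). The dorsal midbrain and the alar plate, neighbours at the bottom, differed by -1.62 (adjusted p = 0.0559), and the alar plate and the forebrain by -1.35 (adjusted p = 0.137).

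The Ntn1 levels ran with those of the floor plate. All 8 floor plate markers on the list (Foxa2, Foxa1, Shh, Lmx1a, Spon1, Corin, Sulf1 and Ferd3l) were called higher in the ventral midbrain, and 5 of the 8 in the hindbrain. All 8 were called lower in the dorsal midbrain, and 7 of the 8 in the alar plate. Their summed RPKM was 788 to 885 in the ventral midbrain, 386 to 654 in the hindbrain and 10.4 to 184 in the forebrain. It was 8.91 to 13.2 in the alar plate and 2.21 to 7.71 in the dorsal midbrain. Foxa2, the transcription factor that defines the floor plate, was listed at 0 in 2 libraries, and Ferd3l in 1. The ratio of Ntn1 to this sum was 0.270 to 0.301 in the ventral midbrain and 0.343 to 0.350 in the hindbrain. It was higher where floor plate genes were scarce, with 0.889 to 1.01 in the dorsal midbrain, 0.747 to 1.73 in the alar plate and 1.96 in forebrain 1. In forebrain 2 and 3, where the floor plate sum reached 90.8 and 184, the ratio was 0.395 and 0.322. How much of each Ntn1 level came from floor plate cells was not tested.

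**Figure D3:**
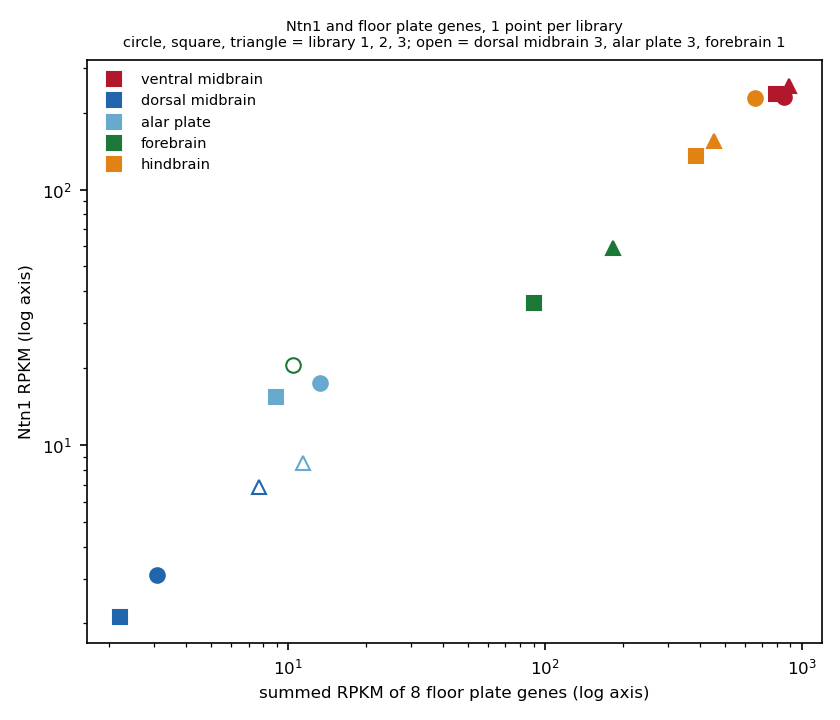
Ntn1 RPKM (y axis, log scale) against the summed RPKM of the 8 floor plate genes (x axis, log scale), 1 point per library, coloured by region. Ventral midbrain and hindbrain libraries lie at the top right, and in forebrain 1 Ntn1 stood at 20.5 RPKM although the floor plate sum was 10.4.

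Ntn4, a netrin of basement membranes that acts on laminin networks rather than mainly through DCC, stayed within a narrow range. Its lowest library had 4.85 RPKM (forebrain 3) and its highest 13.2 (hindbrain 1). The region means ran from 6.24 RPKM in the forebrain to 10.5 in the hindbrain, a ratio of 1.69. It passed across the regions with an adjusted p of 0.0351. That call was lost without dorsal midbrain 1 or 2, forebrain 2 or 3, hindbrain 3, or ventral midbrain 2 or 3, with adjusted p from 0.0538 to 0.104. The single called pair set the dorsal midbrain above the forebrain by 0.68 (SE 0.19, adjusted p = 0.0198), and it was lost without dorsal midbrain 1 or 2 or forebrain 2 or 3 (highest adjusted p = 0.0944). In no region did its level pass against the others.

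Dcc, the receptor that draws axons toward netrin 1, had the highest mean over the 15 libraries of the 6 receptors, 48.3 RPKM against 33.9 for Neo1. It had 61.0, 62.9 and 72.5 RPKM in the dorsal midbrain and 51.1, 52.5 and 56.3 in the hindbrain. The forebrain had 38.3, 43.0 and 41.9, and the ventral midbrain 35.2, 35.1 and 36.0. In the alar plate 2 libraries had 59.8 and 60.7, and alar plate 3 had 17.6, the lowest of all 15. Across the regions Dcc did not pass (adjusted p = 0.196), and no pair was called. Without alar plate 3 it did (adjusted p = 1.71e-05). Its difference was then -0.60 in the ventral midbrain (adjusted p = 1.6e-05), 0.48 in the dorsal midbrain (adjusted p = 0.000172, where 53.3% of all genes were called) and -0.34 in the forebrain (adjusted p = 0.00587). The alar plate difference turned from -0.24 to 0.34 (adjusted p = 0.013, where 3.78% were called). By region mean, Dcc was lowest in the ventral midbrain, where Ntn1 was highest, and highest in the dorsal midbrain, where Ntn1 was lowest, with or without alar plate 3. The regions between them did not keep an opposite order. With all 15 libraries the hindbrain came directly below the top region for both Ntn1 and Dcc. A relation between Dcc and Ntn1 was not tested. Between the ventral and the dorsal midbrain the difference was -0.86 in both fits, with an adjusted p of 0.0739 with alar plate 3 and 5.99e-06 without it. The Dcc gene model is longer than 98.3% of those tested, and alar plate 3 had 0.292 times the mean of alar plate 1 and 2. The part of length in that low value was not tested.

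Neo1, or neogenin, the DCC paralog that binds netrins and the repulsive guidance molecules, varied less. Its levels were 40.7, 37.8 and 39.8 RPKM in the ventral midbrain and 34.1, 39.6 and 38.8 in the hindbrain. They were 32.1, 35.7 and 34.7 in the forebrain, 32.2, 30.0 and 39.9 in the dorsal midbrain, and 27.7, 26.9 and 17.7 in the alar plate. The alar plate libraries were the lowest 3 of the 15. Neo1 differed across the regions (adjusted p = 0.0176), and the log2 difference of the alar plate from the other regions was -0.59 (SE 0.12, adjusted p = 0.0141). That call held with any library left out. The ratio of Dcc to Neo1 was 0.865, 0.927 and 0.905 in the ventral midbrain, the one region where Neo1 was the more abundant in all 3 libraries. It was 1.19 to 1.21 in the forebrain, 1.33 to 1.498 in the hindbrain and 1.81 to 2.10 in the dorsal midbrain. In the alar plate it was 2.16 and 2.26, and 0.996 in alar plate 3. This ratio was not tested.

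The UNC5 receptors, which mediate repulsion from netrin 1, were expressed at lower levels than Dcc. Their sum was 11.5 to 49.7 RPKM per library, and the largest single value was that of Unc5b in dorsal midbrain 3. The 4 paralogs followed different patterns.

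Unc5a was lowest in the dorsal midbrain, as Ntn1 was. It had 1.29, 1.34 and 3.19 RPKM in the dorsal midbrain and 3.53, 2.96 and 2.88 in the alar plate. The ventral midbrain had 6.02, 7.33 and 7.12, the hindbrain 4.69, 7.59 and 7.26, and the forebrain 4.15, 7.39 and 8.51. The ventral midbrain, hindbrain and forebrain overlapped, and all 9 of their libraries lay above the 6 of the dorsal midbrain and alar plate. In the dorsal midbrain the log2 difference from the other regions was -1.20 (SE 0.21, adjusted p = 0.00195), called with any library left out. The pairs of the dorsal midbrain with the ventral midbrain, forebrain and hindbrain were called, each with any library left out. The pair of ventral midbrain and alar plate (0.92, adjusted p = 0.0328) was lost without any ventral midbrain library or without alar plate 2 or 3.

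Unc5b, which is also a receptor of endothelial cells, had a different order of regions. It had 16.2, 10.9 and 11.7 RPKM in the alar plate and 8.17, 15.6 and 7.29 in the forebrain, against 3.79, 3.76 and 4.64 in the ventral midbrain and 2.25, 3.51 and 4.23 in the hindbrain. Its dorsal midbrain levels were 7.08, 6.20 and 30.8. Every library of the alar plate, forebrain and dorsal midbrain lay above every library of the ventral midbrain and hindbrain. Dorsal midbrain 3 was the highest, at 4.64 times the mean of dorsal midbrain 1 and 2. Unc5b differed across the regions (adjusted p = 0.0246), a call lost without hindbrain 1 or 2 or ventral midbrain 1 or 2 (adjusted p from 0.051 to 0.0598). No region passed against the other 4. Without dorsal midbrain 3, the alar plate did (1.09, adjusted p = 0.0103), and so did the hindbrain (-1.04, adjusted p = 0.00725) and the ventral midbrain (-0.72, adjusted p = 0.0352). The hindbrain also passed without dorsal midbrain 2 (-1.30, adjusted p = 0.0466) or alar plate 3 (-1.22, adjusted p = 0.0485, where 14.6% of all genes were called). Of 8 endothelial markers, 5 were called higher in the dorsal midbrain, against 18.2% of all genes. The summed RPKM of the 8 there was 73.6, 75.9 and 54.7. Dorsal midbrain 3, where Unc5b was highest, had the lowest of those sums. In the other regions the sum was 55.1 to 60.8 (ventral midbrain), 41.5 to 68.6 (alar plate), 43.4 to 50.7 (forebrain) and 45.9 to 52.2 (hindbrain), and no endothelial marker was at 0 in any library. The part of endothelial cells in the Unc5b levels was not tested.

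Unc5c, the receptor whose loss misroutes hindbrain and cerebellar cells, was highest in the dorsal midbrain. It had 7.03, 7.04 and 12.9 RPKM there, and 0.557, 2.27 and 1.59 in the hindbrain. The ventral midbrain had 3.46, 2.99 and 3.63, the alar plate 2.53, 2.03 and 6.43, and the forebrain 8.13, 4.19 and 3.61. Dorsal midbrain and hindbrain lay at opposite ends without overlap, while the 3 regions between them overlapped one another. The log2 difference was 1.26 in the dorsal midbrain (SE 0.29, adjusted p = 0.0075) and was called there with any library left out. In the hindbrain it was -1.28 (adjusted p = 0.0203), and the call was lost without hindbrain 1 (-0.98, adjusted p = 0.129) or hindbrain 3 (-1.35, adjusted p = 0.0874). The pair of dorsal midbrain and hindbrain, at 2.03 (adjusted p = 0.00243), was called with any library left out. The pair of ventral and dorsal midbrain (-1.15, adjusted p = 0.0399) was lost without any library of these regions or without hindbrain 3. The libraries high for Gbx2 were also high for Unc5c: alar plate 3 had 2.82 times, dorsal midbrain 3 had 1.83 times and forebrain 1 had 2.08 times the mean of the other libraries of its region. The part of tissue makeup in those values was not tested.

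Unc5d, whose protein can also bind FLRT proteins, showed no regional difference that passed (adjusted p = 0.89). It ranged from 0.934 RPKM in alar plate 3 to 5.01 in alar plate 2, and the region means from 2.81 in the dorsal midbrain to 3.61 in the hindbrain. Its gene model is longer than 97.4% of those tested, and alar plate 3 had 0.197 times the mean of alar plate 1 and 2. Without alar plate 3 the adjusted p across regions was 0.192, and without alar plate 3, dorsal midbrain 3 and forebrain 1 it was 0.0227 (10 of 10 members and 70.7% of all genes were called in that fit).

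As shares of the UNC5 sum, Unc5a made up 35.9% to 40.6% in the ventral midbrain and 40.9% to 44.7% in the hindbrain. Its share was 6.42% to 7.54% in the dorsal midbrain, 13.1% to 14.1% in the alar plate and 19.0% to 37.2% in the forebrain. Unc5b was the largest share in the alar plate, at 52.2% to 60.6%. Unc5b made up 34.9% to 61.9% in the dorsal midbrain, where Unc5c came next at 25.9% to 39.6%. Thus Unc5a led in every ventral midbrain and hindbrain library, and Unc5b in every alar plate library and in forebrain 2. In forebrain 1 Unc5b and Unc5c were nearly level, at 8.17 and 8.13 RPKM. In forebrain 3 Unc5a led (37.2% against 31.8% for Unc5b). In dorsal midbrain 2, Unc5c exceeded Unc5b (39.6% against 34.9%). The sum of UNC5 RPKM over that of Dcc stayed below 1 in 14 libraries, from 0.224 in hindbrain 1 to 0.725 in forebrain 2, and was 1.25 in alar plate 3. These shares were not tested.

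**Figure D4:**
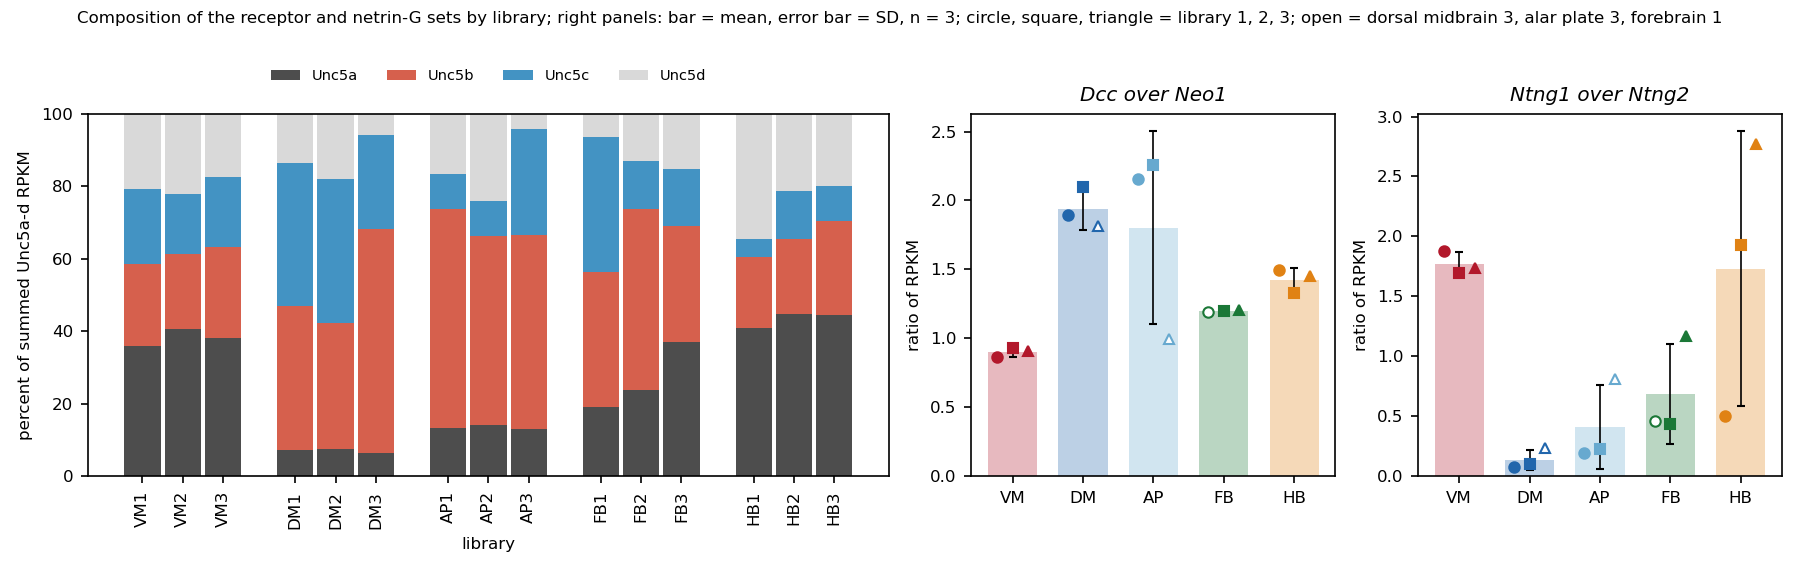
Receptor composition by library: shares of each UNC5 gene in the UNC5 sum (percent) and the ratios of Dcc to Neo1 and of Ntng1 to Ntng2. Unc5a leads in the ventral midbrain (35.9% to 40.6%) and is least in the dorsal midbrain (6.42% to 7.54%).

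The 2 netrin-G genes had different regional orders. Ntng1, whose protein binds the ligand encoded by Lrrc4c, had 9.60, 11.1 and 12.2 RPKM in the ventral midbrain and 14.1, 8.60 and 12.3 in the forebrain. It had 3.34, 5.50 and 7.34 in the alar plate, 2.06, 5.98 and 5.52 in the hindbrain, and 1.64, 2.37 and 3.82 in the dorsal midbrain. All 6 libraries of the ventral midbrain and forebrain lay above the other 9. In the dorsal midbrain the log2 difference was -1.25 (SE 0.26, adjusted p = 0.00447), a call lost without dorsal midbrain 1 (adjusted p = 0.052). In the ventral midbrain it was 0.97 (adjusted p = 0.029), a call lost without ventral midbrain 1, 2 or 3 (adjusted p from 0.0825 to 0.163). The forebrain value, 1.04, missed the threshold at an adjusted p of 0.0504. It passed without dorsal midbrain 3 (0.0226), alar plate 3 (0.0249), hindbrain 1 (0.0398) or hindbrain 2 (0.0492), and with the replicate number as a block (0.024). The pairs of dorsal midbrain with ventral midbrain (1.77) and with forebrain (-1.83) were called with any library left out. With the replicate number as a block, the pairs that set the hindbrain below the ventral midbrain (1.20, SE 0.27) and the forebrain (1.26, SE 0.27) passed as well, with adjusted p of 0.0291 and 0.0298 against 0.064 and 0.0655 without it. Like Unc5c, Ntng1 was higher in alar plate 3, dorsal midbrain 3 and forebrain 1 than in the rest of each region, by 1.66, 1.91 and 1.35 times.

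Ntng2, whose protein binds the ligand encoded by Lrrc4, had 22.4, 23.3 and 16.4 RPKM in the dorsal midbrain, 17.4, 24.6 and 9.04 in the alar plate and 30.4, 19.9 and 10.5 in the forebrain. It had 5.10, 6.57 and 7.06 in the ventral midbrain and 4.12, 3.10 and 1.99 in the hindbrain. The hindbrain was lowest and the ventral midbrain next, without overlap, and the other regions overlapped above them. The log2 difference was -1.92 in the hindbrain (SE 0.29, adjusted p = 0.00135), called with any library left out. In the dorsal midbrain it was 1.12 (adjusted p = 0.0123), a call lost without dorsal midbrain 1 (1.06, adjusted p = 0.081) or dorsal midbrain 2 (1.03, adjusted p = 0.0765). Of the 10 pairs 6 were called. The 3 pairs that set the hindbrain below the dorsal midbrain (2.43), the forebrain (2.30) and the alar plate (2.08), and the pair of ventral and dorsal midbrain (-1.58), held with any library left out. In GENCODE M21 the Ntng2 exons share 558 of 3990 bases, on the same strand, with the non-coding gene 6530402F18Rik, so some reads of the one may have been counted for the other.

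Ventral and dorsal midbrain held opposite orders of the 2 netrin-G genes. The ratio of Ntng1 to Ntng2 was 1.88, 1.69 and 1.73 in the ventral midbrain, and 0.0734, 0.102 and 0.234 in the dorsal midbrain. It was 0.192 and 0.223 in alar plate 1 and 2 and 0.812 in alar plate 3. In the forebrain it was 0.463, 0.433 and 1.17, and in the hindbrain 0.501, 1.93 and 2.77. Hindbrain 1, the library with little Hoxa2, had the lowest Ntng1 and the highest Ntng2 of its region.

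Cell type markers moved in the same comparisons. In the dorsal midbrain, where Unc5a and Ntng1 were called lower, 5 of 10 neuronal markers were also lower, against 13.8% of all genes. None of the 10 was higher, and their summed RPKM was 2004 to 2542. That sum was 2935 to 3169 in the ventral midbrain, 2582 to 2884 in the alar plate, 2638 to 3140 in the forebrain and 2252 to 2855 in the hindbrain, and none of the 10 was at 0 anywhere. Dcc, not called in the dorsal midbrain with all 15 libraries, had its highest region mean there. Of 10 progenitor markers, 5 were higher and 2 lower in the dorsal midbrain. In the same region, where Unc5c and Ntng2 were called higher, 7 of 8 markers of meninges and mesenchyme were higher, against 18.2% of all genes. Their sum was 67.7 to 128 in the dorsal midbrain, 8.97 to 165 in the alar plate, and at most 16.1 in the libraries of the other regions, with Lum at 0 in 5 libraries. The 2 alar plate libraries at the ends of that range, 1 and 2, had 2.53 and 2.03 RPKM of Unc5c and 17.4 and 24.6 of Ntng2. Alar plate 3, between them in that sum, had 6.43 RPKM of Unc5c and 9.04 of Ntng2. The part of cell type makeup in the member differences was not tested.

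Of 38 other netrin pathway genes, 37 could be tested, and 12 of them (32.4%) differed across the regions, close to the 33.7% of all genes. Ntn5 was not tested, with at most 0.0518 RPKM in any library. Among 13 other ligands, partners and antagonists 5 were called: Draxin, Rgma, Flrt2, Lrrc4c and Gpc3, a proteoglycan named here after its values were seen. Among 24 intracellular effectors 7 were called, of which Trim9, Dock1, Pak1 and Fyn had the smallest adjusted p. The number called was 24 without alar plate 3, where 56.7% of all genes were called, and 7 without dorsal midbrain 1, where 17.2% were.

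Draxin, a secreted chemorepellent that binds both DCC and netrin 1, had its highest level where Ntn1 was lowest. Dorsal midbrain libraries had 76.9, 78.6 and 57.6 RPKM and hindbrain libraries 15.4, 21.6 and 18.1, without overlap with any other region in either case. The log2 difference was 1.28 in the dorsal midbrain (SE 0.19, adjusted p = 0.000779) and -1.09 in the hindbrain (adjusted p = 0.00336). Rgma, a repulsive ligand of neogenin, had 154.0 ± 3.7 RPKM (SD, n = 3) in the ventral midbrain and 128 ± 18 in the hindbrain, against 50.4 ± 24 in the alar plate. The ventral midbrain lay above the others by 1.11 (adjusted p = 0.0115) and the alar plate differed by -1.06 (adjusted p = 0.0313). The first call was lost without ventral midbrain 1, 2 or 3 (highest adjusted p = 0.0711). The second was lost without alar plate 3 (-0.57, adjusted p = 0.0683), any ventral midbrain library, dorsal midbrain 2, forebrain 2 or hindbrain 3. Flrt2, a ligand of Unc5d, was higher in the hindbrain, with 12.1 ± 1.5 RPKM (0.95, adjusted p = 0.00565), a call lost without hindbrain 2 (0.0535) or hindbrain 3 (0.0514). Lrrc4c, the partner of Ntng1, was lower in the dorsal midbrain (-1.004, adjusted p = 0.0461), where its libraries had 1.40, 1.32 and 7.42 RPKM. That call held only without alar plate 3, forebrain 1 or dorsal midbrain 3, and was lost without any one of the other 12 libraries, with the highest adjusted p, 0.279, without dorsal midbrain 1. Across the regions, Robo3 (adjusted p = 0.0639), Lrrc4 (0.126), Rgmb (0.144), Flrt3 (0.182) and Dscam (0.695) did not pass.

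The effectors moved by less. Trim9, a ubiquitin ligase that binds DCC, was higher in the ventral midbrain (0.35, adjusted p = 0.014) and lower in the alar plate (-0.53, adjusted p = 0.00295). Dock1, an activator of Rac1, was higher in the dorsal midbrain (0.52, adjusted p = 0.0079), a call lost without dorsal midbrain 1 (0.0537). Fyn, a kinase that phosphorylates DCC, was lower there (-0.31, adjusted p = 0.00306). Pak1, a kinase acting below Rac1 and Cdc42, was lower in the ventral midbrain (-0.53, adjusted p = 0.0121). The ventral midbrain calls of Trim9 and Pak1 were lost without any one library of that region, with adjusted p up to 0.0791 and 0.0714.

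**Figure D5:**
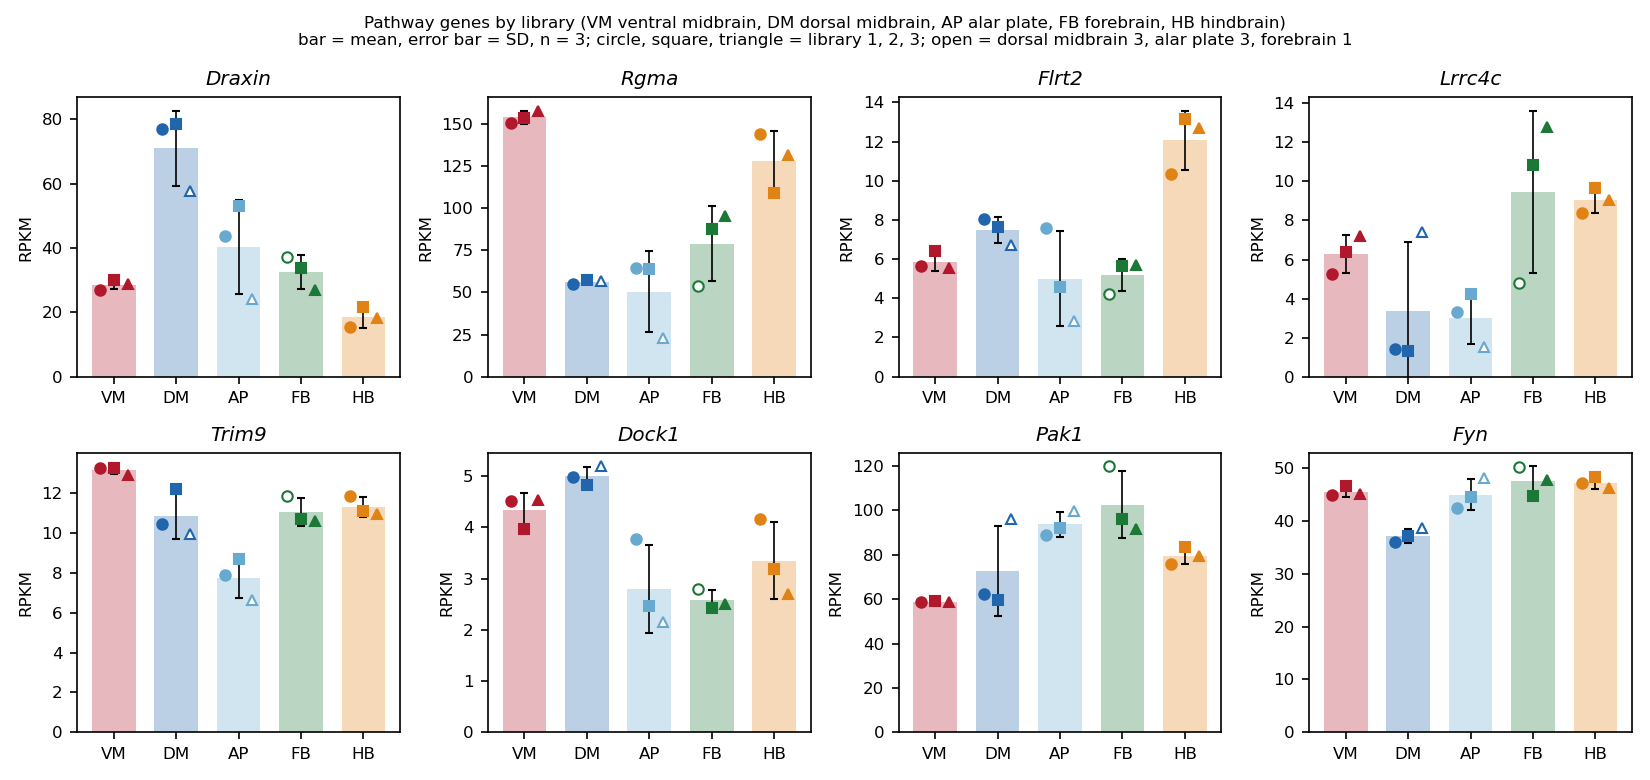
RPKM of 8 pathway genes in each library, by region, with bars for the mean and error bars for the SD (n = 3), each gene on its own linear axis. Draxin is highest in the dorsal midbrain (57.6 to 78.6 RPKM) and Rgma in the ventral midbrain (154.0 ± 3.7).

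For each member, the genes with the most similar profile over the 15 libraries were found by Pearson's r of log2(RPKM + 1), given as a description, since the libraries share regions and depth. Ntn1 was most like Spon1 (0.986), a floor plate gene on the list above, Sulf2 (0.985) and Ubash3b (0.980). Unc5a was most like Magee1 (0.984), Rgs7 (0.981) and Lrfn2 (0.981), and Dcc like Trim2 (0.963), Srgap3 (0.948) and Zmiz1 (0.936). Among the genes nearest to Neo1 were Zfp704 (0.949) and Pcnx (0.942). For Ntng2 the nearest was the overlapping 6530402F18Rik (0.986), whose RPKM was 0.295 to 0.458 of that of Ntng2, followed by Lef1 (0.921) and Ppp1r18 (0.917). The profile of Ntng1 came closest to Gap43 (0.928), Tmem200a (0.905) and Foxp2 (0.895). The remaining members had weaker matches. Ntn4 was paired with Filip1l (0.907), Pde3b (0.886) and Loxl2 (0.875), Unc5b with Otx1 (0.878), Bhlhe23 (0.869) and S1pr1 (0.862), Unc5c with Tspan18 (0.876), Zic5 (0.866) and 2610035F20Rik (0.865), and Unc5d with Apbb2 (0.906), Slc8a2 (0.896) and 6330578E17Rik (0.892).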

How the data were processed

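RNA was extracted with Trizol from dissected brain regions, and libraries were made from 200 ng with an Illumina TruSeq kit, per the labels' protocols. The authors deposited 1 table of RPKM values, with 1 column per sample. Bowtie and the mouse build mm9 are named in the submitters' processing notes. Not given in the sources used here are the aligner's version, the annotation, and how reads were counted or whether by strand. Reads were recovered as whole multiples of the RPKM step of each gene, and 16598 of 16612 genes (99.916%) came out whole in every library, within 0.02 to 0.15 reads. A floor of 3 reads was worth 0.0211 to 0.178 RPKM over the members, which reflects counting error alone.

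The tests used limma 3.58.1 (R 4.3.3, variance trend) on log2(RPKM + 1) in one fit of the 15 libraries, for genes that reached 1 RPKM in 3 or more libraries. This scale understates changes of weakly expressed genes. Tests were two-sided, with Benjamini-Hochberg adjustment over all genes within a comparison, and the procedure was tested on simulated data. The comparisons were the 5 regions together, each region against the mean of the other 4, and the 10 pairs of regions, which share libraries with one another. All members were named, with 9 pathway genes set by name, the 4 effectors with the smallest adjusted p across regions, and the 3 most similar genes of each member, of which 1 for Neo1 is not reported here. The members and the gene lists were chosen with earlier results of these data known. Draxin was matched through its older symbol 2610109H07Rik. The reference tables are of another build, so no gene coordinates are given beyond the GRCm38.p6 promoter windows. No pathway list was tested for enrichment. The replicate numbers of the labels were taken to pair 2 regions where all 3 same-numbered pairs had deviations from the region means correlated over 0.1. This held among the ventral midbrain, forebrain and hindbrain (0.234 to 0.382) and for no other pair of regions. The fit of the 15 libraries left these numbers out, and they were used only as an alternative. Alternatives covered the pseudocount, the filter, the scaling, library weights, the replicate number as a block, fits of 2 regions alone, and libraries left out.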

Additional observations from a re-analysis of the deposited data

How the results depend on the processing

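The counts given for the members (8 across regions, 2 in the ventral midbrain, 5 in the dorsal midbrain, 2 in the alar plate, 0 in the forebrain, 3 in the hindbrain, 27 for pair tests) and 12 for pathway genes stayed within 1.5 times under a pseudocount of 0.1, no filter, a filter at 5 RPKM (which removes Unc5d), quantile and median-ratio scaling, and, for pairs, fits of 2 regions alone. Fits of 2 regions alone called partly other pairs. Neo1 lost its alar plate pairs and Ntn4 that of dorsal midbrain and forebrain. Unc5b lost that of dorsal midbrain and hindbrain, and Ntng2 that of ventral midbrain and alar plate. These had adjusted p of 0.0547 to 0.132. Dcc gained those of dorsal midbrain with ventral midbrain, forebrain and hindbrain, and Unc5b that of ventral midbrain and forebrain. Dcc, Ntng1 and Ntng2 gained that of ventral midbrain and hindbrain. Library weights gave 8 in the ventral midbrain, 9 in the dorsal midbrain, 7 in the alar plate, 6 in the forebrain, 7 in the hindbrain, 68 pair tests and 32 pathway genes, with 84.7% of all genes called across regions and 44.6, 76.9, 16.4, 49.1 and 53.0% in those regions. By pair, 14.7% to 75.4% of all genes were called with weights. Without alar plate 3, dorsal midbrain 3 and forebrain 1 the same counts were 7, 9, 7, 5, 7, 60 and 30, and 10 members passed across regions, where 70.7% of all genes did (33.5, 64.5, 12.3, 43.7 and 37.8% by region, 9.06% to 63.4% by pair). Leaving out 1 library at a time gave 6 to 9 across regions, then 1 to 5, 3 to 6, 2 to 3, 0 to 3 and 2 to 5 for the regions in that order, 21 to 39 pair tests and 7 to 24 pathway genes. The share of all genes called moved as well, from 17.2% to 56.7% across regions. For the regions in that order it was 5.05% to 19.6%, 8.3% to 53.3%, 2.83% to 12.9%, 0.518% to 8.34% and 2.32% to 14.6%. By pair it was 0% to 52.4%. With the replicate number as a block, the ventral midbrain count was 4 (11% of all genes), with Unc5a (adjusted p = 0.039) and Ntng2 (0.0362) added, the forebrain count 2 (4.1%), Ntng1 (1.04, adjusted p = 0.024) and Ntng2 (0.96, adjusted p = 0.043), and the pair count 31, and the other counts by region and across regions did not move. By pair, 0.211% to 32.9% of all genes were called with the block. Over all 5 regions the numbers were not taken to pair the samples, since of 30 same-numbered pairs 18 had correlated deviations over 0.1 (range -0.175 to 0.405), and 10 of 15 libraries correlated best with their own number; the median correlation was 0.24 with the same number and -0.10 otherwise. Signs turned in 30 values, and the cause was not tested. In 6 of them the value passed before or after the change: Dcc in the alar plate (0.31 with library weights, 0.34 without the 3 libraries, and -0.53 to 0.34 with 1 library left out, 0.34 being without alar plate 3), Neo1 in the dorsal midbrain (-0.18 with weights, -0.15 without the 3 libraries), and Unc5d in the alar plate (0.38 without the 3 libraries). In the other 24 it passed in neither. With weights and then without the 3 libraries these were Ntn1 in the forebrain (0.091, 0.24), Unc5b in the dorsal midbrain (-0.097, -0.022), Unc5c in the ventral midbrain (0.0036, 0.059), and Unc5d in the ventral midbrain (-0.054, -0.038), forebrain (0.012, 0.040) and hindbrain (-0.098, -0.016), with Unc5d in the alar plate at 0.38 with weights. Scaling turned Neo1 in the dorsal midbrain (-0.011 quantile, -0.031 median-ratio) and Unc5d in the alar plate (0.042 quantile). Leaving out 1 library turned Neo1 in the dorsal midbrain (-0.087 to 0.11) and forebrain (-0.00073 to 0.093), Ntn1 in the forebrain (-0.53 to 0.22), Ntng1 (-0.44 to 0.032), Unc5c (-0.60 to 0.052) and Unc5d (-0.36 to 0.46) in the alar plate, and Unc5d in the forebrain (-0.36 to 0.17). Over all alternatives, 1035 values of members in a region kept direction and side of the threshold, 72 came to pass it and 8 no longer passed. Depth limits Unc5c in hindbrain 1 (55 reads) and Ntng2 in hindbrain 3 (46 reads) most among the values of members.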
